A study of Homo sapiens with 6 samples.

Results

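The histone deacetylase genes are the 10 members HDAC1, HDAC2, HDAC3, HDAC4, HDAC5, HDAC6, HDAC7, HDAC8, HDAC9 and HDAC11, taken by their names from the 57341 genes of the count table. All 10 passed the filter on low counts and are among the 16710 genes tested. RNA was sequenced from 3 replicates of H295R cells, a human adrenocortical carcinoma cell line that makes steroid hormones, with 3 replicates of a subpopulation named H295R-PM-Ptc+. These cells were sorted from H295R by flow cytometry with an antibody against the Hedgehog receptor Ptch1 at the cell surface and were then grown on, so the groups differ in the sort and in what followed it, and they stand for 1 cell line. Neither group was treated, both were kept in the same medium, and the sources used here do not say whether replicates were separate cultures, so p-values measure the spread between these libraries, which may be technical.

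Histone deacetylases remove acetyl groups from lysines of histones and of other proteins, and deacetylated chromatin is in general less open to transcription. Class I enzymes (HDAC1, HDAC2, HDAC3, HDAC8) are mostly nuclear, and the first 3 of these names are the catalytic cores of large corepressor complexes. Class IIa proteins (HDAC4, HDAC5, HDAC7, HDAC9) have little deacetylase activity of their own, bind MEF2 transcription factors and shuttle out of the nucleus when kinases phosphorylate them and 14-3-3 proteins bind. HDAC6, of class IIb, deacetylates tubulin in the cytoplasm, and HDAC11 is the only member of class IV. In steroid-producing cells, acetylation of histones and of the factor SF-1 is known to bear on the transcription of steroidogenic genes.

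The total count per library ran from 23264403 to 25813247. The libraries labelled H295R and those labelled H295R-PM-Ptc+ could not be matched to the cells with certainty. PTCH1, the gene of the sorted protein, had 441, 559 and 579 counts in the libraries labelled H295R and 248, 326 and 319 in those labelled H295R-PM-Ptc+, a log2 fold change of -0.81 (SE 0.147, edgeR adjusted p = 0.0207). The transcript was thus lower where the sorted cells are named, and the adjusted p of PTCH1 was 1.72e-06 with the replicate number as a block and 9.29e-05 in DESeq2. It rose to 0.0799, 0.0921 and 0.0618 without H295R replicate 2, H295R replicate 3 or H295R-PM-Ptc+ replicate 2, where the log2 fold change was -0.78, -0.74 and -0.86. The normalised values published with the study carry the other group name for the same libraries, for HDAC9 as well. Every direction below is therefore that of the libraries as labelled, and it turns round if the names are exchanged. Adrenocortical markers were present, with all 9 listed genes tested and a summed level of 1516 to 1880 CPM, the read count normalised to the total of the library, in the libraries labelled H295R and 2070 to 2469 in those labelled H295R-PM-Ptc+. Marker genes DLK1 (log2 fold change 0.78, edgeR adjusted p = 0.00245) and CYP21A2, which has a near-identical pseudogene (0.88, adjusted p = 0.0067), were higher in the latter, and DLK1 alone went from a mean of 702 to 1208 CPM. The other markers did not pass, and 5 of the 9 had a log2 fold change below 0. With the replicate number as a block 3 of the 9 were higher and 1 lower, the third higher one being STAR (0.41, adjusted p = 0.346, and 3.91e-06 with the block) and the lower one CYP11A1 (-0.25, adjusted p = 0.391, and 0.00100 with the block). Of 12 markers of leukocytes, endothelium, stroma, chromaffin cells and hepatocytes, 7 had at most 3 counts in every library, and PTPRC, CD68 and LUM had none. The summed level of the 12 was 1.05 to 1.09 against 1.41 to 2.31 CPM. Most of it was CHGA, the only one tested, at 0.753, 0.787 and 0.809 against 1.53, 1.01 and 0.950 CPM (edgeR adjusted p = 0.305). The part of these levels in the results below was not tested.

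Of the 10 genes, only HDAC9 passed the threshold in edgeR, an adjusted p under 0.05. It is the gene on which the comparison turns, so the sequence around its starts is shown first. The count table places HDAC9 on chromosome 7, at chr7:18086949-19002416 on the plus strand of GRCh38, with 16827 bases of merged exons. RefSeq promoter windows on GRCh38.p14 were found for 9 of the 10 members, 19 windows in all, and HDAC5 had no entry. Each window printed here holds 280 bases, of which 250 precede the transcript start and 30 follow it. The first start of HDAC9, the one farthest upstream, and the next one, 408885 bases downstream inside the gene, are given with the window of HDAC1, the member of highest level per length, for contrast. Capitals mark a match to the MEF2 consensus, searched on both strands, which was looked for because class IIa proteins bind MEF2 factors.
HDAC9 first start, chr7:18086575-18086854, plus strand: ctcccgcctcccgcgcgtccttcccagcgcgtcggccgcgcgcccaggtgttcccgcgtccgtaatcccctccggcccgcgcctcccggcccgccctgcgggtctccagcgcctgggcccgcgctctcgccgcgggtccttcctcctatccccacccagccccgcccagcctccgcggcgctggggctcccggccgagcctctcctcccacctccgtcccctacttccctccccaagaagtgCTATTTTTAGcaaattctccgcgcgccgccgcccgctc
HDAC9 internal start, chr7:18495460-18495739, plus strand: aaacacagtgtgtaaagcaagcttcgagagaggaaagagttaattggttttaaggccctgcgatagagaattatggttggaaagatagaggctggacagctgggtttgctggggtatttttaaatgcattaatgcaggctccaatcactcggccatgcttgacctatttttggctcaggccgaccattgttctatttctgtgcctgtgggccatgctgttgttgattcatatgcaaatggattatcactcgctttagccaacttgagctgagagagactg
HDAC1 start, chr1:32291833-32292112, plus strand: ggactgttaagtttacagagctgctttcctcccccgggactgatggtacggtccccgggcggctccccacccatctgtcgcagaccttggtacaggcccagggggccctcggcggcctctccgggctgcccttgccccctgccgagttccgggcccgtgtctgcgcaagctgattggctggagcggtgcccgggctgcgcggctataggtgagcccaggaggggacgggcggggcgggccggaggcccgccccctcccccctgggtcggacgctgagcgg

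The window at the first start of HDAC9 had 38 CpG dinucleotides and 75.0% G and C, and its 1 MEF2 match lay from base -8 to base 2 around the start. That start lies just before the first base that the count table gives for the gene. The internal window had 5 CpG, 44.6% G and C and no MEF2 match, and the other internal windows of HDAC9 had 0 to 5 CpG. The HDAC1 window had 24 CpG, 72.5% G and C and no MEF2 match. Over all 35116 windows of the RefSeq set the median was 13 CpG, and 2.92% held a MEF2 match, against 1 of the 19 windows of the members. A GC box (GGGCGG on either strand) stood in 44.1% of all windows and in 8 of the 19. A match is a description of the letters only. Fragments were counted per gene name, so the counts do not tell transcripts from the first start from those that begin inside the gene, nor HDAC9 forms with the catalytic domain from those without it.

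HDAC9 had 573, 494 and 477 counts in the libraries labelled H295R and 1237, 1050 and 985 in those labelled H295R-PM-Ptc+. Scaled to library size, these were 24.0, 19.4 and 19.3 CPM against 48.4, 42.2 and 42.6 CPM. The groups did not overlap, and the lowest library labelled H295R-PM-Ptc+ lay well above the highest labelled H295R. The mean level was 20.9 ± 2.66 CPM (SD, n = 3) in the libraries labelled H295R and 44.4 ± 3.47 CPM (SD, n = 3) in the others. The log2 fold change was 1.09 (SE 0.107), or 2.12-fold with a 95% interval of 1.80 to 2.51, and the adjusted p of edgeR's quasi-likelihood test was 0.00113. Within pairs of the same replicate number the log2 ratio of CPM was 1.01, 1.12 and 1.14 for replicates 1, 2 and 3, so HDAC9 was higher in 3 of 3 pairs. An exact permutation test of HDAC9 alone gave p = 0.1 (two-sided), which is the smallest value that 3 against 3 libraries allow. HDAC9 was among the genes that the study picked from these same libraries, so its difference here is not independent evidence. In RNA of whole cultures, more cells with the transcript and more transcript per cell cannot be told apart.

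Read against the whole table, 1 of the 10 members was called, where edgeR called 3.73% of all genes tested in either direction and 2.42% in the direction of HDAC9. Among the 624 genes called, HDAC9 stood 46th by adjusted p. Its difference was of ordinary size among the genes called, as it was 176th by log2 fold change of the 404 higher genes, whose median was 0.96. DESeq2 called 4.74% of the genes it tested and limma-voom 3.64%, and in both HDAC9 was the 1 member called, with adjusted p of 2.94e-14 and 0.00131.

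**Figure D1:**
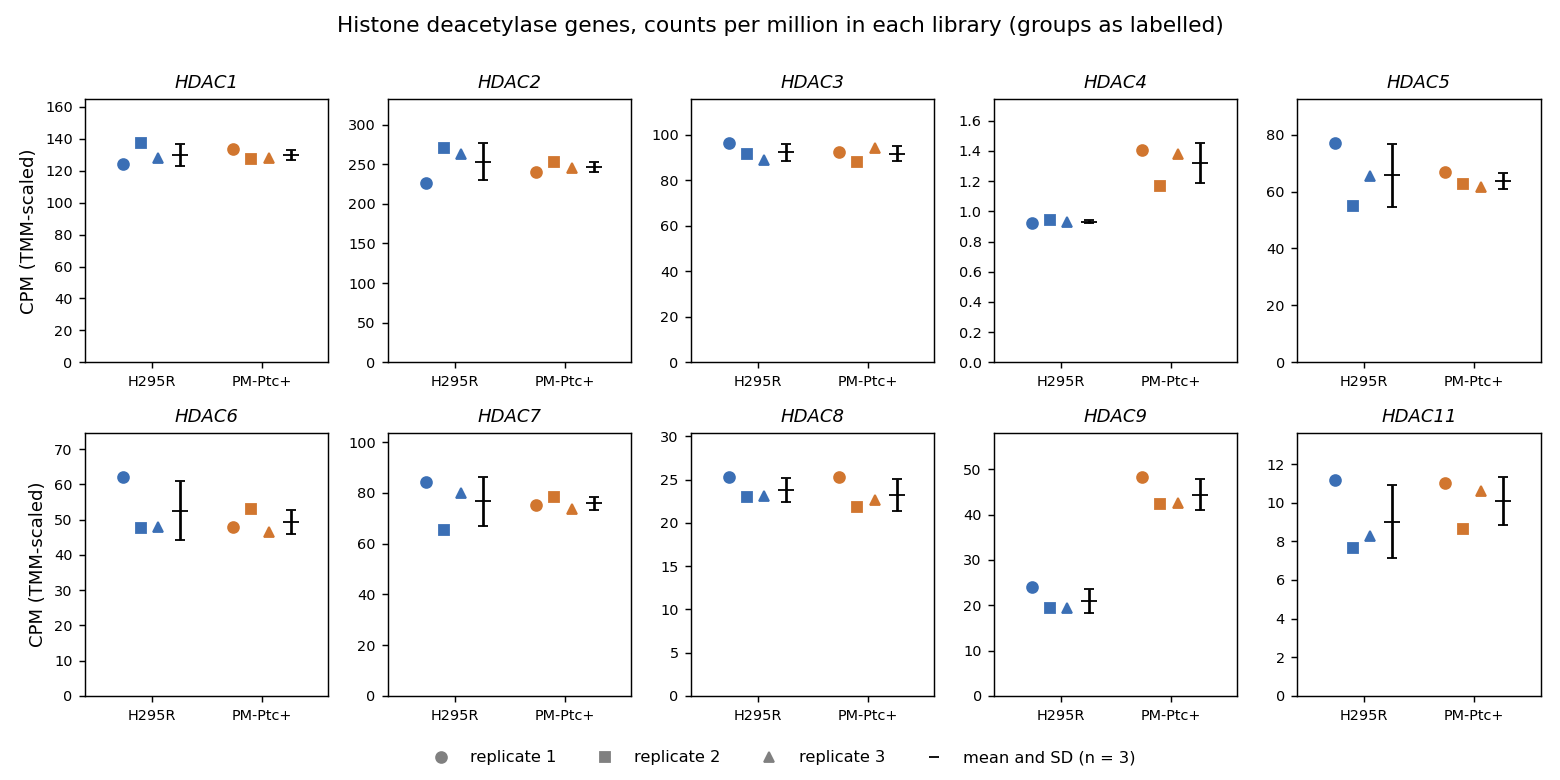
Level of the 10 histone deacetylase genes in each of the 6 libraries, in CPM on library sizes scaled by TMM (trimmed mean of M-values), on axes that start at 0; circles, squares and triangles are replicates 1, 2 and 3, and the black bars give mean and SD (n = 3) of each group as labelled. HDAC9 lies at 19.3 to 24.0 CPM in the libraries labelled H295R and at 42.2 to 48.4 CPM in those labelled H295R-PM-Ptc+, HDAC4 is separated at about 1 CPM, and the groups of the other 8 genes overlap.

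The other class IIa genes did not pass the threshold. HDAC4 (chr2:239048168-239401654, minus strand), a protein known from muscle and bone, was the least abundant member, with 22, 24 and 23 counts in the libraries labelled H295R against 36, 29 and 32. This gave 0.92, 0.94 and 0.93 CPM against 1.41, 1.17 and 1.38 CPM, and the groups did not overlap. The log2 fold change was 0.50 (95% interval 0.04 to 0.96), with an unadjusted p of 0.0376 and an edgeR adjusted p of 0.254, and 0.153 with the replicate block, a fit in which same-numbered libraries are compared with each other. The difference of HDAC4 thus did not pass after adjustment over all genes tested, and its interval, which is not adjusted, reaches from 1.03-fold to 1.95-fold. HDAC4 and HDAC9 were the 2 members without overlap between the groups, where 23.5% of all genes tested had none. The exact permutation p of HDAC4 was also 0.1, the smallest the design allows.

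HDAC5 (chr17:44076746-44123702, minus strand), which with HDAC9 is known as a brake on growth of heart muscle, had 77.0, 54.8 and 65.4 CPM in the libraries labelled H295R and 67.0, 62.6 and 61.6 CPM in the others. HDAC7 (chr12:47782722-47833132, minus strand), known from endothelium and thymocytes, had 84.3, 65.6 and 80.1 CPM against 75.2, 78.6 and 73.8 CPM. In both genes the libraries labelled H295R spread on either side of all 3 others. The log2 fold change was -0.04 for HDAC5 (95% interval -0.31 to 0.22, edgeR adjusted p = 0.906) and -0.01 for HDAC7 (-0.24 to 0.21, adjusted p = 0.966).

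Set against its own class, HDAC9 made up 6.42 to 7.69% of the summed level per exon length of the class IIa genes in the libraries labelled H295R and 13.4 to 14.9% in those labelled H295R-PM-Ptc+. The ratio of HDAC9 to HDAC7 in CPM was 0.241 to 0.297 against 0.538 to 0.644. To HDAC5 it was 0.295 to 0.355 against 0.675 to 0.722. These ratios within a library do not depend on how the libraries were scaled, and their groups did not overlap.

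None of the 4 class I genes passed the threshold. HDAC1 (chr1:32292086-32333635, plus strand), a core enzyme of the NuRD, SIN3 and CoREST complexes, had 124, 137 and 128 CPM in the libraries labelled H295R and 133, 127 and 128 CPM in the others. HDAC2 (chr6:113933028-114011308, minus strand), its close paralog in the same complexes, had 227, 270 and 263 CPM against 240, 253 and 246 CPM. HDAC3 (chr5:141620876-141636870, minus strand), the enzyme of the NCOR and SMRT complexes, had 96.3, 91.5 and 88.8 CPM against 92.6, 88.2 and 94.3 CPM. HDAC8 (chrX:72329516-72573103, minus strand), which deacetylates the cohesin subunit SMC3, had 25.4, 23.0 and 23.1 CPM against 25.3, 21.8 and 22.6 CPM. The groups of all 4 overlapped. The intervals bound how far these genes could differ, at 0.891- to 1.12-fold for HDAC1, 0.850- to 1.11-fold for HDAC2, 0.888- to 1.11-fold for HDAC3 and 0.848- to 1.12-fold for HDAC8, and the edgeR adjusted p lay between 0.879 and 0.994. A change of HDAC9's size was outside each of them. Reads of HDAC1 can also match the pseudogenes HDAC1P1 and HDAC1P2, which had at most 2 and 6 counts in a library.

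HDAC6 (chrX:48801377-48824982, plus strand), the tubulin deacetylase, had 62.2, 47.5 and 47.9 CPM in the libraries labelled H295R and 48.0, 53.0 and 46.5 CPM in the others. Replicate 1 labelled H295R stood above the remaining 5 libraries, which ran from 46.5 to 53.0 CPM. The log2 fold change of HDAC6 was -0.09 (95% interval -0.35 to 0.17, edgeR adjusted p = 0.753). HDAC11 (chr3:13479724-13506424, plus strand), which removes long fatty acyl groups better than acetyl groups, had 11.2, 7.6 and 8.3 CPM against 11.0, 8.6 and 10.6 CPM, and its groups overlapped. Its log2 fold change was 0.16 (95% interval -0.21 to 0.54, adjusted p = 0.697). The antisense gene HDAC11-AS1 had at most 7 counts. HDAC10, the class IIb polyamine deacetylase and no member here, had 31, 29 and 17 counts against 38, 45 and 17 (log2 fold change 0.38, adjusted p = 0.667).

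**Figure D2:**
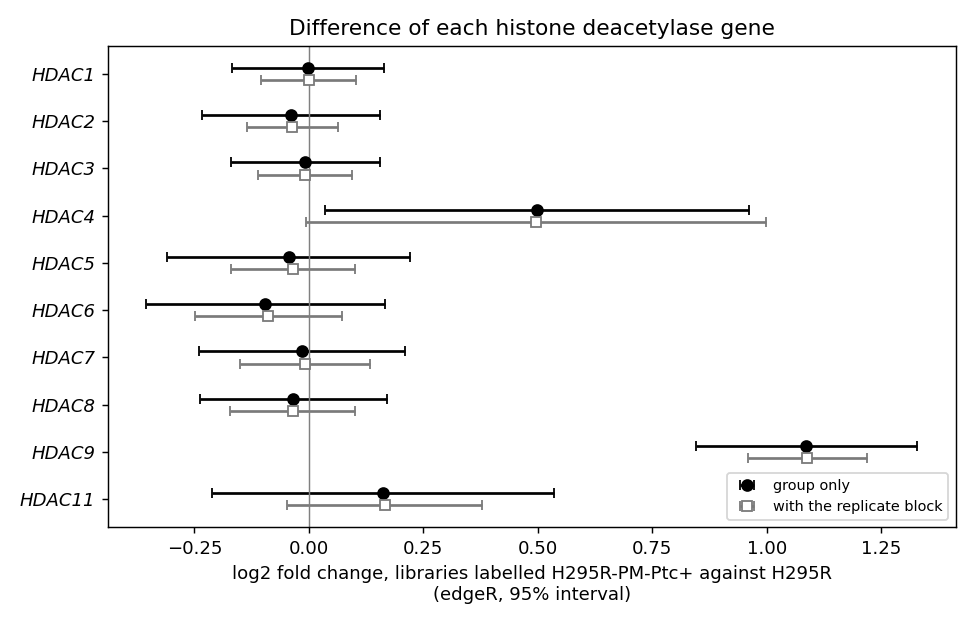
Log2 fold change of each histone deacetylase gene, taken as libraries labelled H295R-PM-Ptc+ over libraries labelled H295R, with its 95% interval from edgeR; filled circles are the fit with the group alone and open squares the fit with the replicate number as a block. HDAC9 lies at 1.09 in both fits, HDAC4 at 0.50 with an interval that reaches 0 with the block, and the intervals of the other 8 genes hold 0.

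Part of the spread among the members followed 1 library. H295R replicate 1 had the highest CPM of the 6 libraries for HDAC3, HDAC5, HDAC6, HDAC7, HDAC8 and HDAC11 and the lowest for HDAC1, HDAC2 and HDAC4. The coefficient of variation in the libraries labelled H295R was 20.9% for HDAC11, 16.9% for HDAC5, 15.9% for HDAC6 and 12.8% for HDAC7, against 12.6%, 4.53%, 6.92% and 3.23% in those labelled H295R-PM-Ptc+. Without that library the log2 fold change became 0.08 for HDAC5, 0.04 for HDAC6 and 0.06 for HDAC7, and that of HDAC11 became 0.34 (edgeR adjusted p = 0.198), and none of them passed. Without H295R replicate 2 the value of HDAC11 was 0.05. The call of HDAC9 held without each library in turn, with log2 fold changes of 1.01 to 1.19 and edgeR adjusted p of 2.19e-04 to 0.0103. With the replicate number as a block its adjusted p was 5.99e-09. HDAC9 was again the 1 member called with the block, where 22.5% of all genes tested were.

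The level per length, in CPM per kilobase of merged exons, put HDAC1 first with a mean of 32.7, followed by HDAC3 at 19.9 and HDAC2 at 16.2. HDAC5 at 8.50, HDAC7 at 7.68, HDAC6 at 4.88 and HDAC8 at 4.37 came next. HDAC9 at 1.94, HDAC11 at 1.81 and HDAC4 at 0.0842 were the lowest. The ranges of neighbours in this order overlapped for HDAC6 and HDAC8 in both groups and for HDAC5 and HDAC7 in the libraries labelled H295R. HDAC9 and HDAC11 changed places between the groups. In the libraries labelled H295R, HDAC11 was 8th at 1.45 to 2.12 and HDAC9 9th at 1.15 to 1.43. In those labelled H295R-PM-Ptc+, HDAC9 was 8th at 2.51 to 2.88 and HDAC11 9th at 1.64 to 2.09. The length is that of all exons of a gene merged, so it may be longer than that of the transcripts present.

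**Figure D3:**
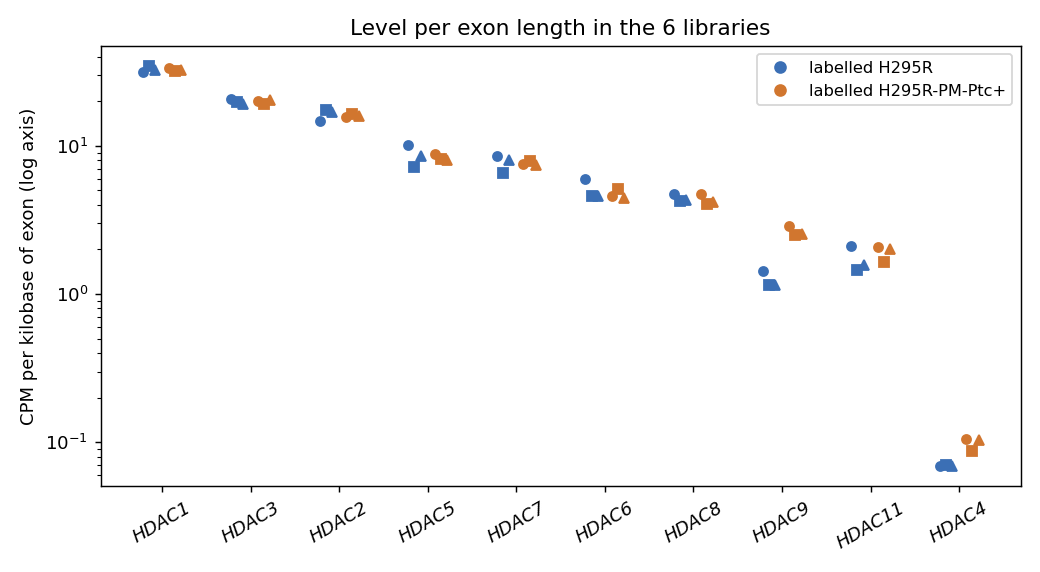
Level of each histone deacetylase gene per exon length in the 6 libraries, in CPM per kilobase on a log axis, ordered by the mean; symbols as in the plot of CPM by library, blue for libraries labelled H295R and orange for those labelled H295R-PM-Ptc+. Levels run from 32.7 for HDAC1 to 0.0842 for HDAC4, and HDAC9 lies below HDAC11 in the blue libraries and above it in the orange ones.

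The summed level of the family overlapped between the groups. All members together had 17491, 18233 and 17909 counts in the libraries labelled H295R and 18982, 18320 and 16835 in the others. Scaled, this was 718 to 732 CPM against 727 to 743 CPM. Class I genes made up 71.7 to 78.4% of the summed level per length against 73.8 to 74.7%, and class IIa genes 15.5 to 20.2% against 18.6 to 19.4%. HDAC9 alone went from 2.66 to 3.28% of the members' counts to 5.73 to 6.52%. The median log2 fold change of the 10 members was -0.01, beside 0.00094 over all genes tested, with 3 members above 0 and 7 below.

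The genes around HDAC9 were read in order along chromosome 7, to see whether its difference was shared by the region. The 10 tested genes on either side, over 10.5 Mb, had a median log2 fold change of 0.01, with 10 above 0 and 10 below. Of these 20, TSPAN13, a tetraspanin, was higher (0.43, edgeR adjusted p = 0.0118) and DNAH11, an axonemal dynein, was lower (-0.36, adjusted p = 0.0452). DNAH11 was named after its value was seen. The 3 nearest tested genes before HDAC9 were TSPAN13, AHR, the dioxin receptor, at 0.57 (adjusted p = 0.0702, 1.14e-04 with the replicate block) and SNX13, a sorting nexin, at 0.24 (0.115, and 0.00115 with the block). The 3 nearest after it were TWIST1, a mesenchymal transcription factor, at 0.06 (0.903), AC003986.7 at -0.34 (0.699) and TWISTNB, an RNA polymerase I subunit, at 0.05 (0.832). All 3 genes before HDAC9 thus had values above 0 and smaller than its own, while those after it lay on both sides. Of the 6 genes of the table that overlap HDAC9, only NPM1P13 had counts, at most 7 in a library and at most 1.21% of those of HDAC9. On the opposite strand, AC062017.1 overlaps HDAC4 with up to 5 counts, and SLC48A1 overlaps an end of HDAC7 with up to 1370. What these add to the counts of the members was not tested.

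**Figure D4:**
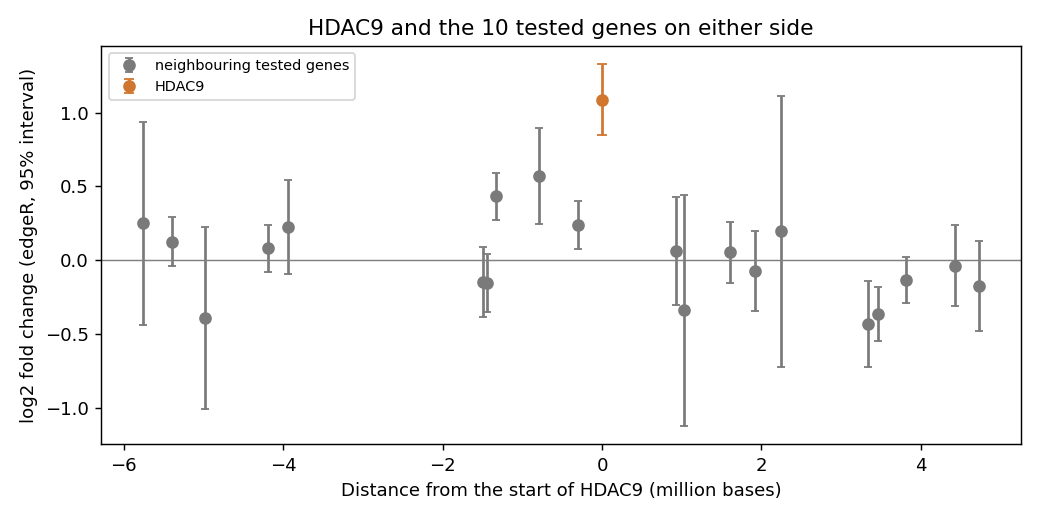
Log2 fold change with its 95% interval (edgeR, libraries labelled H295R-PM-Ptc+ against H295R) of HDAC9 (orange) and of the 10 tested genes on either side (grey), against the distance of their starts from the start of HDAC9 in Mb. HDAC9 lies at 1.09, the 3 genes just before it at 0.43, 0.57 and 0.24, and the 20 neighbours have a median of 0.01.

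The same reading around the other members gave medians of -0.12 to 0.12 with 1 exception. Around HDAC11 on chromosome 3, the 20 neighbours had a median log2 fold change of -0.23 over 3.05 Mb, 16 of them below 0 and 3 called, where 3.73% of all genes tested were. HDAC11 itself lay on the other side of 0, at 0.16, without passing the test. Around HDAC2 16 of 20 neighbours were below 0 (median -0.12), with 1 called, FYN (-0.50, edgeR adjusted p = 0.0189), and around HDAC4 16 of 20 were above 0 (median 0.12). Around HDAC7 1 of 20 was called, RAPGEF3 (1.38, adjusted p = 0.0062), which is 2 tested genes away. FYN and RAPGEF3 were named after their values were seen.

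The 5 genes whose pattern over the 6 libraries was nearest to that of HDAC9 were C8orf4, CDC42BPG, NPR2, SAMD3 and FSTL5. Nearness was the root mean square distance of log2 CPM centred over the libraries, among 14553 tested genes with a mean of at least 1 CPM, and it was 0.0603, 0.0632, 0.0642, 0.0798 and 0.0896 log2 units in that order. Their log2 fold changes were 1.13, 1.09, 1.13, 1.17 and 1.03. C8orf4 had 4.81, 4.09 and 3.92 CPM in the libraries labelled H295R and 9.51, 9.29 and 9.33 CPM in the others. CDC42BPG, a kinase that acts downstream of CDC42, had 6.95, 5.79 and 5.83 CPM against 13.3, 12.6 and 13.5 CPM. The distance is a description, with no test, over 6 libraries that include the groups compared.

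The genes that work with or against the deacetylases were taken as 11 lists of 93 genes, of which 89 were tested. None passed in edgeR with the group alone, where 16 had an unadjusted p under 0.05, or 18.0% of those tested beside 17.3% of all genes. DESeq2 called 1 of them, NCOA3, and limma-voom called 0. With the replicate block 28 were called, or 31.5% of those tested beside 22.5% of all genes, of which 15 had more and 13 had fewer counts where H295R-PM-Ptc+ is the label. The groups did not overlap for 21 of the 89, or 23.6% beside 23.5%. Log2 fold changes ran from -0.48 to 0.65 with a median of 0.06, so no tested partner gene had a log2 fold change as large as that of HDAC9.

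Among the complexes of the class I enzymes, no gene passed with the group alone. In the lists that follow, a log2 fold change in parentheses is followed by its edgeR adjusted p with the group alone and, after the word block, by that with the replicate block. Counts called with the block are to be read beside the 22.5% of all genes tested that this fit called. Of 12 genes of the nucleosome remodelling complex NuRD, whose median was 0.03, 1 passed with the block. This was MTA3, which lay at 62.6, 60.9 and 63.3 CPM against 54.7, 53.9 and 52.4 CPM (log2 fold change -0.21, adjusted p = 0.129, and 0.00619 with the block). The largest value in the list, that of CHD5, was -0.48 at about 1 CPM (adjusted p = 0.439). Of 13 SIN3 genes 3 passed with the block, all lower, among them the PHD finger protein gene ING2 (-0.32, adjusted p = 0.107, block 0.00584) and BRMS1L (-0.22, 0.236, block 0.0231). Among 9 CoREST genes HMG20B was lower with the block (-0.16, 0.601, block 0.0421, and a log2 fold change of -0.0023 with the group alone and without H295R replicate 1), and the largest value was that of RCOR2 (0.22, 0.713). Of 5 genes of the NCOR and SMRT complexes, in which HDAC3 acts, 1 was higher and 2 lower with the block. The latter were the exchange factors TBL1XR1 (-0.31, 0.270, block 7.98e-05) and TBL1X (-0.20, 0.331, block 0.0267). None of the 3 genes of the mitotic complex MiDAC passed, and the largest value was 0.16 for TRERF1 (adjusted p = 0.511).

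The partners of the class IIa proteins are nearest to HDAC9 in function. MEF2D, a transcription factor they bind and repress, had 59.6, 51.8 and 54.0 CPM in the libraries labelled H295R and 66.8, 68.2 and 67.4 CPM in the others. The groups did not overlap, and the log2 fold change was 0.29 (SE 0.0766, edgeR adjusted p = 0.0784, and 0.00111 with the block). It was the 1 of the 3 tested MEF2 genes that passed with the block. Of 6 tested 14-3-3 genes, whose proteins hold phosphorylated class IIa deacetylases in the cytoplasm, 1 was higher and 1 lower with the block, YWHAG (0.14, adjusted p = 0.480, block 0.0273) and YWHAQ (-0.14, 0.396, block 0.0269). Of 15 tested genes of kinases that act on class IIa proteins, 12 had a log2 fold change above 0, and 4 were higher and 1 lower with the block. Those called with the block were 33.3% of the list, beside 22.5% of all genes tested. CAMK2B had 5.40, 4.06 and 4.45 CPM against 6.89, 6.40 and 6.87 CPM (0.54, adjusted p = 0.0782, block 0.00444). CAMK4 had 0.92, 1.77 and 1.34 CPM against 1.64, 2.45 and 2.25 CPM, and its groups overlapped (0.65, adjusted p = 0.255, block 0.0256). The lower one was PRKD3, the most abundant of these kinase genes, with 1138, 1443 and 1357 CPM against 1028, 1207 and 1184 CPM. Its groups overlapped (-0.20, adjusted p = 0.397, block 0.00361), and it was named after its value was seen.

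Sirtuins, the deacetylases that depend on NAD, had log2 fold changes on both sides of 0. SIRT2, a tubulin deacetylase like HDAC6, had 42.0, 36.3 and 39.0 CPM against 53.6, 46.1 and 46.7 CPM (0.32, edgeR adjusted p = 0.0953, block 5.05e-04). The mitochondrial desuccinylase SIRT5 had 17.3, 13.4 and 14.1 CPM against 12.5, 11.5 and 11.2 CPM (-0.35, 0.173, block 0.00793). The groups of these genes did not overlap, and they were the 2 of 7 sirtuins that passed with the block. The largest value, -0.39 for SIRT4, was at about 1 CPM (adjusted p = 0.632).

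Among 13 histone acetyltransferase genes, whose products add the groups that deacetylases remove, 5 were higher and 1 lower with the block. That is 46.2% of the list, beside 22.5% of all genes tested. NCOA3, a coactivator of nuclear receptors, had 44.5, 57.8 and 54.0 CPM against 60.9, 75.8 and 78.9 CPM (0.46, edgeR adjusted p = 0.0856, block 9.69e-06, DESeq2 0.0304). HAT1, which acetylates new histone H4 before it is built into chromatin, had 139, 164 and 155 CPM against 127, 133 and 120 CPM (-0.27, 0.132, block 9.81e-04). Neither gene overlapped between the groups. Of the 3 tested BET genes, whose proteins read acetylated histones, BRD3 was lower with the block (-0.20, adjusted p = 0.223, block 0.00664).

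**Figure D5:**
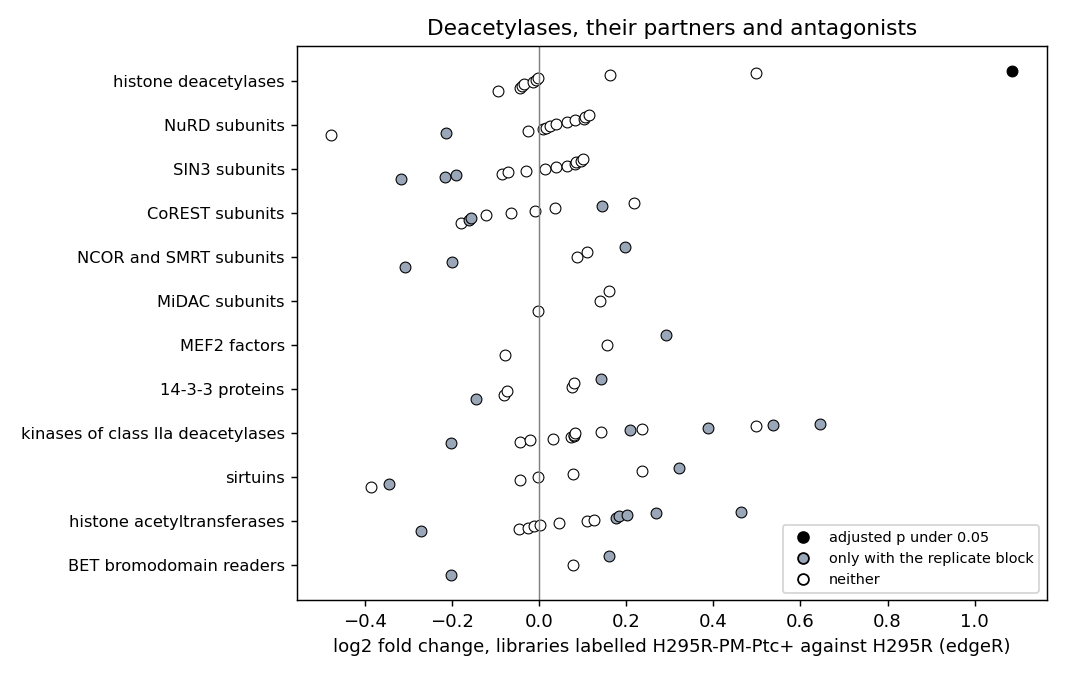
Log2 fold change (edgeR, libraries labelled H295R-PM-Ptc+ against H295R) of the histone deacetylase genes and of the genes in 11 lists of their partners and antagonists, 1 point a gene; black points have an adjusted p under 0.05 with the group alone, grey points only with the replicate block, and open points in neither fit. HDAC9 is the only black point, and the tested partner genes run from -0.48 to 0.65.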

How the data were processed

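Processing described by the submitters was mapping with STAR 2.4.0a to hg38 and counting of fragments per gene name with featureCounts (Subread 1.5.0-p3 per the labels, another release per the methods), with a strand setting and the primary position of multiply mapped reads. The files deposited by the authors hold these raw counts, not normalized, in 1 column per library. The kit is named as stranded total RNA in the labels and as stranded mRNA in the methods. One row without a gene name held 0 counts. Groups and replicate numbers came from the labels.

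Counts were filtered with filterByExpr, TMM-normalized and fitted with edgeR 4.0.16 (R 4.3.3), using glmQLFit and the two-sided glmQLFTest with no term beside the group. P-values were adjusted by Benjamini-Hochberg over the 16710 genes tested, which held 99.9% of the counts. The standard error is the absolute log2 fold change divided by the root of F. CPM uses TMM-scaled totals. No 2 replicates of a group agreed within counting error, with a chi-square per gene of 5.56 to 25.8. The labels do not say whether same-numbered libraries were prepared together. The deviations of such libraries from their group mean had correlations of 0.497, 0.307 and 0.228 over genes, against -0.352 to 0.150 for different numbers. The replicate number was therefore a block in an alternative fit. The other alternatives were DESeq2 1.42.0, limma-voom (limma 3.58.1), relative log expression size factors, no filter, a minimum of 10 counts in every library and each library left out in turn, 12 in all. The fits were tested on simulated counts.

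The members and lists were chosen with earlier results of these data known. Named were all members, PTCH1, other genes whose name starts with HDAC, in each partner list the calls, up to 2 genes called only with the block and the largest log2 fold change, the 3 nearest tested genes on either side of HDAC9 and the 5 nearest in pattern. Some genes that this rule takes are not reported here. Promoter sequences are from RefSeq on GRCh38.p14. Intervals are 95% intervals.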

Additional observations from a re-analysis of the deposited data

How the results depend on the processing

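The call of HDAC9 held in all 12 alternatives, with log2 fold changes of 1.01 to 1.19 and adjusted p of 2.94e-14 to 0.0103, and the count of members called stayed at 1. Of 120 values of the members under the alternatives, 108 kept their direction and side of the threshold, and 12 changed sign, all near 0 in members without a call. With 1 library left out, log2 fold changes ran from -0.034 to 0.040 for HDAC1, -0.11 to 0.0092 for HDAC2, -0.046 to 0.024 for HDAC3, -0.16 to 0.084 for HDAC5, -0.17 to 0.043 for HDAC6, -0.12 to 0.058 for HDAC7 and -0.11 to 0.012 for HDAC8. Those of HDAC4 (0.44 to 0.58) and HDAC11 (0.055 without H295R replicate 2 to 0.34 without H295R replicate 1) stayed above 0 without passing. Of partner genes without a call, CHD5 moved from -0.48 to -0.23 without H295R replicate 3, SIRT4 to -0.086 and HMG20B to -0.0023 without H295R replicate 1, and RCOR2 to 0.042 without H295R replicate 2. Smaller moves were those of SIRT5 (-0.23) and YWHAG (0.076) without H295R replicate 1, TBL1XR1 (-0.19) without H295R-PM-Ptc+ replicate 1 and TRERF1 (0.093) without H295R-PM-Ptc+ replicate 3. HDAC1 also changed sign with at least 10 counts in every library (0.00043). Leaving out H295R replicate 1 turned HDAC3, HDAC5, HDAC6, HDAC7 and HDAC8. The count of partner genes called was 0 with the group alone, 28 with the replicate block, 1 with DESeq2 and 2 with no filter, and 0 to 3 when 1 library was left out (3 if it was H295R replicate 1 and 1 if it was H295R-PM-Ptc+ replicate 1). The cause of these shifts was not tested. The replicate block, which compares same-numbered libraries with each other, changed no call of a member. The class IIa genes without overlap numbered 2, and 2 to 3 when 1 library was left out (3 without H295R replicate 2), an alternative chosen after seeing the data. HDAC4 had 22 to 36 counts a library, and the part of depth in its result was not tested. No fit tells the transcripts of HDAC9 apart.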
